A study of Homo sapiens with 11 samples.

Results

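The transcripts described here are those of 34 genes, of the 30484 gene names on the array, of TGF-β, activin and BMP signalling other than the receptors: ligands, their secreted inhibitors and latent binding proteins, a pseudoreceptor and receptor-bound adaptors, the SMADs, ubiquitin ligases and co-repressors that limit SMAD activity, and target genes. All probes that the scanner files name after these genes were taken, which gave 55 of the 41000 probes of the array. PC-3 cells, which derive from a human prostate carcinoma, were transfected, and their RNA at 24 h was hybridised to 11 Agilent 1-colour arrays. Every array received 150 ng of RNA pooled from 4 transfections. Mock cells, which got transfection reagent and no duplex, had 4 arrays, of which sample 1 belonged to set 1, sample 8 to set 2 and samples 9 and 11 to set 3. Each set was 1 slide. Set 1 also held dsEcad640, an siRNA that matches the E-cadherin promoter (sample 2), the miR-302a duplex (sample 3) and a first array of the miR-372 duplex (sample 4). Set 2 also held the duplexes of miR-520f (sample 6), whose title reads miR-530f against miR-520f in all its further labels, and of miR-373 (sample 7). Set 3 also held the other array of miR-372 (sample 10) and the miR-520c duplex (sample 12). All groups are the same cell line at the same time after transfection.

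TGF-β and activin ligands signal through receptor kinases that phosphorylate SMAD2 and SMAD3, whereas BMP ligands act on SMAD1, SMAD5 and SMAD9, and both kinds of receptor-regulated SMAD enter the nucleus with SMAD4. SMAD6, SMAD7 and the SMURF ubiquitin ligases limit the signal at the receptors and at the SMADs, and SKI and SKIL repress transcription on SMAD complexes. The ID genes, which encode inhibitors of basic helix-loop-helix factors, are classical BMP targets, and TGFBI is a matrix protein gene induced by TGF-β. In many carcinoma cells the pathway has been linked to growth arrest and to loss of epithelial character.

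The duplexes were compared because they share a seed, the bases at positions 2 to 8 of the guide strand from the 5′ end that pair with messenger RNAs. The mature sequences of the miRNAs from RefSeq (GRCh38.p14) are shown with these bases in capitals, since the grouping of the arrays rests on them.
miR-302a: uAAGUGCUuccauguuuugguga
miR-372: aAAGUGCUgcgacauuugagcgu
miR-373: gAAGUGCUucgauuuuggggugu
miR-520c: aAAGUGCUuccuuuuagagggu
miR-520f: aAGUGCUUccuuuuagaggguu
The first 4 miRNAs held AAGUGCU at positions 2 to 8. miR-520f held the same 7 bases at positions 1 to 7, so that its seed was shifted by 1 base. These 4 miRNAs and dsEcad640, which has the same seed, had 6 arrays, named the common-seed arrays here, and miR-520f was tested apart from them.

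Levels are log2 processed signals, with the 75th percentile of the same array set to 0, and a difference is a level minus the mean level of the mock arrays of the same set. Only probes whose signal was well above background on 6 or more of the 11 arrays were tested, and a probe was called when limma's moderated test, with the set as a block, gave an adjusted p under 0.05 over all tested probes. Of the 55 member probes, 47 were tested, and they represented 30 of the 34 genes. LEFTY1 was well above background on 0 arrays, LEFTY2 and BMP2 on 1 and ID4 on 3, so that no test was made for these inhibitors of nodal signalling, this BMP ligand and this ID gene. miR-372 sample 4 stood apart from the other arrays, with 88.1% of all probes well above background against 54.3% to 72.7% elsewhere. The dim members had their highest levels on that array: ID4 had a level of -2.18 there and from -9.28 to -4.42 on the other 10 arrays, and LEFTY2 had -4.28 there and from -9.22 to -6.06 elsewhere. All 8 probes of the epithelial markers KRT8, KRT18, KRT19 and TACSTD1 were well above background on 11 arrays, and so were the 2 probes of VIM, which encodes the mesenchymal filament protein vimentin. The leukocyte marker PTPRC was well above background on at most 1 array and the endothelial marker CDH5 on 0, although 1 probe each of COL1A1, CD3E and PECAM1 was so on all 11. KRT8 and KRT18 themselves had 5 of their probes called higher with the common-seed duplexes, and the part of this in the results was not tested.

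With the common-seed duplexes, ID1, SMURF2 and SKI rose by 0.42 to 0.62 on the log2 scale, and no member fell past the threshold. These 3 genes had 4 called probes, or 8.51% of the 47 tested, against 4.19% of the 27118 probes tested on the whole array. Among all probes 2.16% were called higher and 2.03% lower, whereas the 4 member probes were all higher and 0 were lower. At an unadjusted p under 0.05 the members had 10 probes, or 21.3%, and the whole array had 21.1%. The median log2 fold change of the member probes was 0.01, with 24 above and 23 below 0, and that of all tested probes was 0.03. The 3 called genes became 0 when any of 8 arrays was left out or when the set was not a block, 1 (SMURF2) without miR-520c sample 12, and 5 without miR-372 sample 4. In such bulk RNA, fewer cells of a type and less RNA per cell cannot be told apart. The labels do not say that the mock arrays came from separate RNA mixes, so that the p-values measure the spread between arrays only. The common-seed group pooled 5 different duplexes over 6 arrays, so this spread mixes differences between duplexes with those between arrays. With a mean per duplex, no probe of the whole array was called for any duplex.

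ID1, a target gene of BMP signalling, had a higher level with every duplex. It was 4.94, 4.92, 4.90 and 5.09 on mock samples 1, 8, 9 and 11. The level was 5.70 with dsEcad640, 5.55 with miR-302a, 5.32 and 5.54 on the 2 miR-372 arrays, 5.31 with miR-373 and 5.96 with miR-520c. All 6 common-seed arrays therefore lay above all 4 mock arrays. This was so for 4 member probes, those of ID1 and SMURF2 and 1 of SMAD1, or 8.51%, against 3.26% of all tested probes. The fitted change was 0.62 ± 0.13 (SE), or 1.53-fold, with an adjusted p of 0.0412 by limma. The mean difference was 0.59 in set 1, 0.38 in set 2 and 0.75 in set 3. The level was highest with miR-520f, at 6.13. The probe lies at 29657819 to 29657878 on chromosome 20 of hg18, the build of the probe coordinates.

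No other ID gene was called. ID2 was measured by 2 probes, with fitted changes of 0.10 ± 0.21 and 0.26 ± 0.17 (SE), and ID3 had -0.08 ± 0.08, none of them called. The ID3 difference ranged only from -0.23 to 0.03 over the common-seed arrays, but it was 0.48 with miR-520f. TGFBI, which encodes a secreted matrix protein, had levels of -2.65, -2.38, -2.14 and -1.12 on mock samples 1, 8, 9 and 11. The level was -3.17 with dsEcad640, -3.15 with miR-302a, -3.28 and -3.07 on the miR-372 arrays, -3.32 with miR-373 and -2.04 with miR-520c. Each of the 6 arrays was below the mock mean of its set, but the miR-520c value lay within the range of the mock arrays. The fitted change of TGFBI was -0.80 ± 0.26 (SE), with an adjusted p of 0.121, so that it was not called. With miR-520f, TGFBI was not well above background, and its level was at least 3.39-fold lower than on mock sample 8 of the same slide (adjusted p = 0.175 in the fit, not called).

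SMURF2, the ubiquitin ligase that marks SMADs and receptors for degradation, gave similar differences on all 6 common-seed arrays. Probe A_24_P210888 had levels of -2.09, -2.12, -1.98 and -1.95 on mock samples 1, 8, 9 and 11. It had -1.38 with dsEcad640, -1.72 with miR-302a, -1.52 and -1.59 on the miR-372 arrays, -1.75 with miR-373 and -1.62 with miR-520c. These 2 groups did not overlap. For probe A_23_P100754 they also did not overlap, but the nearest pair, mock sample 1 and miR-520c, were both at -0.81 when rounded. The fitted changes were 0.46 ± 0.08 (SE), or 1.38-fold, for A_23_P100754 and 0.43 ± 0.09, or 1.34-fold, for A_24_P210888, with adjusted p-values of 0.0291 and 0.0457. Differences from the same-set mock mean lay between 0.32 and 0.72 over both probes and all 6 arrays, and miR-520f had 0.39 and 0.44. The probes lie at 59974283 to 59974342 and 59970422 to 59970481 on chromosome 17 of hg18. SMURF1, the related ligase, had changes of 0.01 ± 0.12 and 0.10 ± 0.14 at its 2 probes, neither of them called.

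Of the inhibitory SMADs, neither was called. SMAD6, which acts mainly on BMP signalling, had a change of -0.07 ± 0.17 (SE). SMAD7, which blocks type I receptors, differed in sign between the slides. Its difference was 0.08 with dsEcad640, 0.28 with miR-302a and 0.80 with miR-372 in set 1, and 0.48 with miR-373 in set 2. In set 3 it was -1.09 with miR-372 and -0.50 with miR-520c, although the mock arrays of that set differed by only 0.01. The 2 miR-372 arrays thus lay on opposite sides of their mock arrays, and the fitted change over all 6 arrays was -0.12 ± 0.27.

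Among the co-repressors, SKI was called at 1 of its 3 probes. At probe A_23_P325631 the levels were -2.18, -2.28, -2.90 and -2.99 on mock samples 1, 8, 9 and 11. They were -1.87 with dsEcad640, -1.96 with miR-302a, -1.68 and -2.40 with miR-372, -1.87 with miR-373 and -2.50 with miR-520c. The ranges of the groups overlapped, because both kinds of array were lower on the slide of set 3, and within each set every duplex was above every mock array. The fitted change was 0.42 ± 0.09 (SE), or 1.34-fold, with an adjusted p of 0.0378. Probes A_24_P338603 and A_24_P362100 had changes of 0.46 ± 0.13 and 0.30 ± 0.15, with adjusted p-values of 0.0822 and 0.307. All 3 probes were above the mock mean of the set on 6 of 6 arrays. Over all members this was so for 9 probes of 5 genes, or 19.1%, against 16.6% of all tested probes, and 4 member probes were below on all 6 arrays, or 8.51% against 11.4%. The SKI probes differed in opposite directions between slides: the mock levels of A_24_P338603 were -2.73 and -2.66 in sets 1 and 2 but -0.43 and -0.48 in set 3, whereas those of A_23_P325631 were lower in set 3. The 3 probes lie between 2227376 and 2230801 on chromosome 1 of hg18. SKIL, the relative of SKI, had a change of -0.10 ± 0.34, with a difference of 1.39 on miR-372 sample 4 and from -0.60 to -0.03 on the other 5 common-seed arrays.

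SMAD1, the receptor-regulated SMAD of BMP signalling, was close to the threshold at both of its probes. The level of A_24_P71938 was 0.43, 0.49, 0.33 and 0.53 on mock samples 1, 8, 9 and 11. It was 1.18 with dsEcad640, 0.90 with miR-302a, 0.75 and 1.16 with miR-372, 0.78 with miR-373 and 1.46 with miR-520c. The groups did not overlap, and the fitted change was 0.63 ± 0.14 (SE), or 1.54-fold, with an adjusted p of 0.0518. At the other probe, A_23_P212870, the change was 0.40 ± 0.11 with an adjusted p of 0.0849, and the groups overlapped, since mock sample 11 was at 1.34 and miR-372 sample 4 at 1.04. The call of SMAD1 depended on the processing: it was called without miR-372 sample 4 (adjusted p = 0.0316), and the adjusted p at A_24_P71938 ranged from 0.0251 to 0.197 over 17 alternatives. Its probes lie at 146699669 to 146699728 and 146698483 to 146698542 on chromosome 4 of hg18.

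The remaining SMADs had no called probe. SMAD2, at 4 probes, had changes between -0.23 and 0.18, and SMAD3 had -0.18 ± 0.08 and 0.16 ± 0.10 (SE) at its 2 probes, with opposite signs. SMAD4, the common partner, had -0.06 ± 0.15, and the BMP-responsive SMAD5 had -0.06 ± 0.11. The 95% intervals were -0.41 to 0.28 for SMAD4 and -0.30 to 0.19 for SMAD5. SMAD9 was dim: it had differences of 1.08 with miR-302a and 0.92 with miR-372 sample 4, but -0.81 with dsEcad640, and it was not well above background with miR-373 and miR-520f. Its mock levels in the order of samples 1, 8, 9 and 11 were -4.31, -4.15, -4.83 and -4.78, and the fitted change, which took the dim signals as measured, was -0.26 ± 0.41.

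The ligands showed values in both directions and no call. INHBB, which encodes the βB subunit of activin and inhibin, had levels of 5.81, 5.75, 5.97 and 6.21 on mock samples 1, 8, 9 and 11. The level was 4.71 with dsEcad640, 5.26 with miR-302a, 5.31 and 5.54 on the miR-372 arrays, 5.57 with miR-373 and 5.58 with miR-520c. INHBB had the only tested member probe whose 6 common-seed arrays all lay below the 4 mock arrays, or 2.13%, against 3.38% of all tested probes. The fitted change was -0.51 ± 0.15 (SE), with an adjusted p of 0.0995. INHBA, the βA subunit, had 0.19 ± 0.17.

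TGFB2, which encodes a TGF-β isoform, had at probe A_24_P148261 levels of -0.97, -0.88, 0.35 and 1.14 on mock samples 1, 8, 9 and 11. It had -0.14 with dsEcad640, 0.18 with miR-302a, -0.16 and 0.90 with miR-372, -0.15 with miR-373 and 2.20 with miR-520c. All 6 arrays were above the mock mean of their set, but the mock arrays of set 3 differed by 0.79, and miR-372 sample 10 was below mock sample 11. The fitted change was 0.83 ± 0.27 (SE) with an adjusted p of 0.125. The second TGFB2 probe had 0.49 ± 0.29. miR-520f separated the 2 probes, with a difference of -0.22 at A_24_P148261 and 1.11 at A_24_P402438. The latter was dim, at -4.63 on mock sample 8 and -3.52 on the miR-520f array, where the lowest level well above background was -4.14. TGFB1 had 0.11 ± 0.09, TGFB3 had -0.28 ± 0.15 and BMP4 had 0.41 ± 0.33, of which the BMP4 value included a difference of 1.81 on miR-372 sample 4 and from -0.14 to 0.62 on the other common-seed arrays.

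The secreted and extracellular regulators had no called probe either. FST, which encodes the activin-binding follistatin, had levels of 3.63, 3.58, 4.05 and 4.68 on mock samples 1, 8, 9 and 11. Its levels on the common-seed arrays ran from 3.66 to 4.03 and overlapped those of the mock arrays, with a fitted change of -0.08 ± 0.17 (SE). LTBP2, a matrix relative of the proteins that hold latent TGF-β, was below the mock mean of the set on 5 of 6 arrays at 3 of its 4 probes. At A_24_P167668 the mock levels were -3.25, -3.23, -3.30 and -3.58, and the differences were -1.05 with dsEcad640, -1.13 with miR-302a, -0.77 with miR-373, -0.62 with miR-372 sample 10 and -0.98 with miR-520c. On miR-372 sample 4 the difference was 0.63, the opposite sign. The fitted change was -0.70 ± 0.35 with an adjusted p of 0.301, and without miR-372 sample 4 it was -0.88 ± 0.12 with an adjusted p of 0.00993, which passed the threshold. Quantile normalization also led to a call, with -0.77 and an adjusted p of 0.0150. Probe A_24_P176173 did not show the same values, with differences from -0.66 to 0.11. It was the brightest of the 4, with a mean mock level of -1.94, and the only one well above background on all 11 arrays. Its fitted change was -0.10 ± 0.13, with an adjusted p of 0.740 by limma. A_23_P218144 had -0.23 ± 0.21 and A_23_P405129 had -0.70 ± 0.36, neither of them called.

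With miR-520f, 3 of the 4 LTBP2 probes were not well above background, with levels at least 1.96-fold, 1.38-fold and 1.88-fold lower than on mock sample 8 (A_23_P218144, A_23_P405129 and A_24_P167668). The adjusted p-values of these probes in the fit were 0.146, 0.353 and 0.361, so that none was called. LTBP1 had a fitted change of -0.02 ± 0.10 (SE), and LTBP3 had 0.01 ± 0.24 and -0.16 ± 0.12 at its 2 probes. At the dimmer LTBP3 probe, A_24_P264790, mock samples 1, 8, 9 and 11 had levels of -3.64, -3.43, -3.73 and -4.43, and the difference was 0.95 on miR-372 sample 4 and from -0.29 to 0.07 on the other common-seed arrays.

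BAMBI, a pseudoreceptor that lacks the kinase domain and dampens signalling, had levels of -2.36, -2.19, -1.83 and -0.51 on mock samples 1, 8, 9 and 11. The level was -1.46 with dsEcad640, -1.86 with miR-302a, -1.29 and -1.25 with miR-372, -1.76 with miR-373 and 0.23 with miR-520c. The mock arrays of set 3 differed by 1.32 for this gene, the widest gap of any tested member probe. The fitted change was 0.67 ± 0.35 (SE), with an adjusted p of 0.333. TGFBRAP1, an adaptor of the receptor complex, had 0.06 ± 0.08, and ZFYVE9 (SARA), which presents SMAD2 to the receptor, had 0.34 ± 0.26 and 0.30 ± 0.39. ZFYVE16 (endofin), its endosomal relative, had -0.39 ± 0.17 at A_23_P7543 and 0.00 ± 0.12 at A_24_P286054, with an adjusted p of 0.250 for the former. At A_23_P7543 the mock levels were -3.02, -2.68, -2.13 and -2.38, and 5 of 6 differences were below 0, from -0.89 to -0.20, with 0.09 on miR-372 sample 4.

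The 2 mock arrays of set 3 were a direct measure of the spread between arrays given the same treatment on 1 slide. Over the 47 member probes they differed by a median of 0.24, and 13 probes differed by more than 0.5. Whether a duplex of that set was above or below the mock cells then depended on the mock array for several members. For BAMBI, miR-372 sample 10 was above mock sample 9 by 0.59 and had a difference of -0.73 from mock sample 11. For TGFB2 A_24_P148261 its differences were 0.55 and -0.24. For TGFBI, miR-520c sample 12 was above mock sample 9 by 0.09 and had a difference of -0.92 from mock sample 11. Both duplexes were above both mock arrays for ID1, by 0.45 to 1.06, and for SMURF2 A_23_P100754, by 0.35 to 0.60. They were also above both for SMAD1 A_24_P71938, by 0.63 to 1.13. This followed from the groups not overlapping at these probes, as given above, so it was not a separate check.

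**Figure D1:**
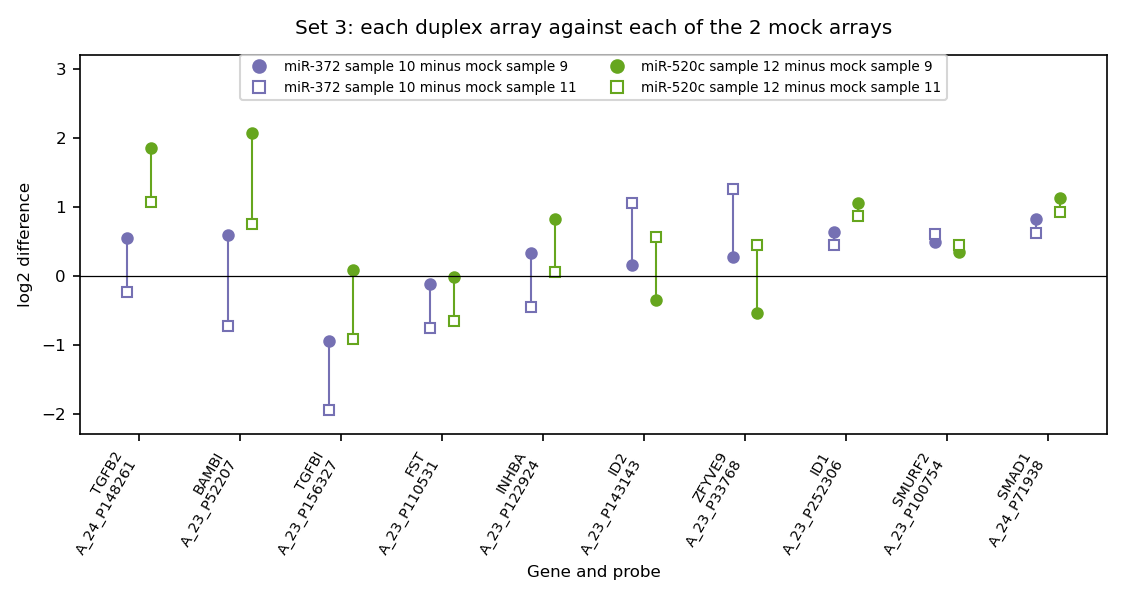
Log2 difference (vertical axis) of miR-372 sample 10 (purple) and miR-520c sample 12 (green) from mock sample 9 (filled circles) and mock sample 11 (open squares) for 10 member probes (horizontal axis), with a line joining the values of 1 duplex array. Lines of TGFB2, BAMBI, TGFBI, INHBA, ID2 and ZFYVE9 cross 0 for at least 1 of the arrays. Those of ID1, SMURF2 and SMAD1 lie between 0.35 and 1.13, at probes where all common-seed arrays lay above all mock arrays.

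miR-520f, whose seed is shifted, had 1 array, and its spread was taken from the other groups. The TGFBI probe and LTBP2 probes A_23_P218144, A_23_P405129 and A_24_P167668 were not well above background on it, and the fit took their dim signals as measured. They are among the probes counted next at an unadjusted p under 0.05, in which some genes have several probes. None of the 47 member probes was called against mock, where 0.672% of 27070 probes were, and 14 had an unadjusted p under 0.05, or 29.8% against 12.4% of all probes by limma. ID1 had the lowest adjusted p, with a change of 1.32 ± 0.24 (SE), or 2.50-fold, and an adjusted p of 0.0637. SMAD1 had 1.15 ± 0.27 and 0.88 ± 0.21, with adjusted p-values of 0.115 and 0.124, and INHBB had -1.07 ± 0.29 with 0.159. The 3 SKI probes had 0.65 ± 0.16, 0.28 ± 0.24 and 0.85 ± 0.28, and none of them was called. The 2 comparisons with mock share the mock arrays, so that the values are given side by side only: ID1 had 0.62 with the common-seed duplexes and 1.32 with miR-520f, SMAD1 A_24_P71938 had 0.63 and 1.15, and SMURF2 A_23_P100754 had 0.46 and 0.46.

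**Figure D2:**
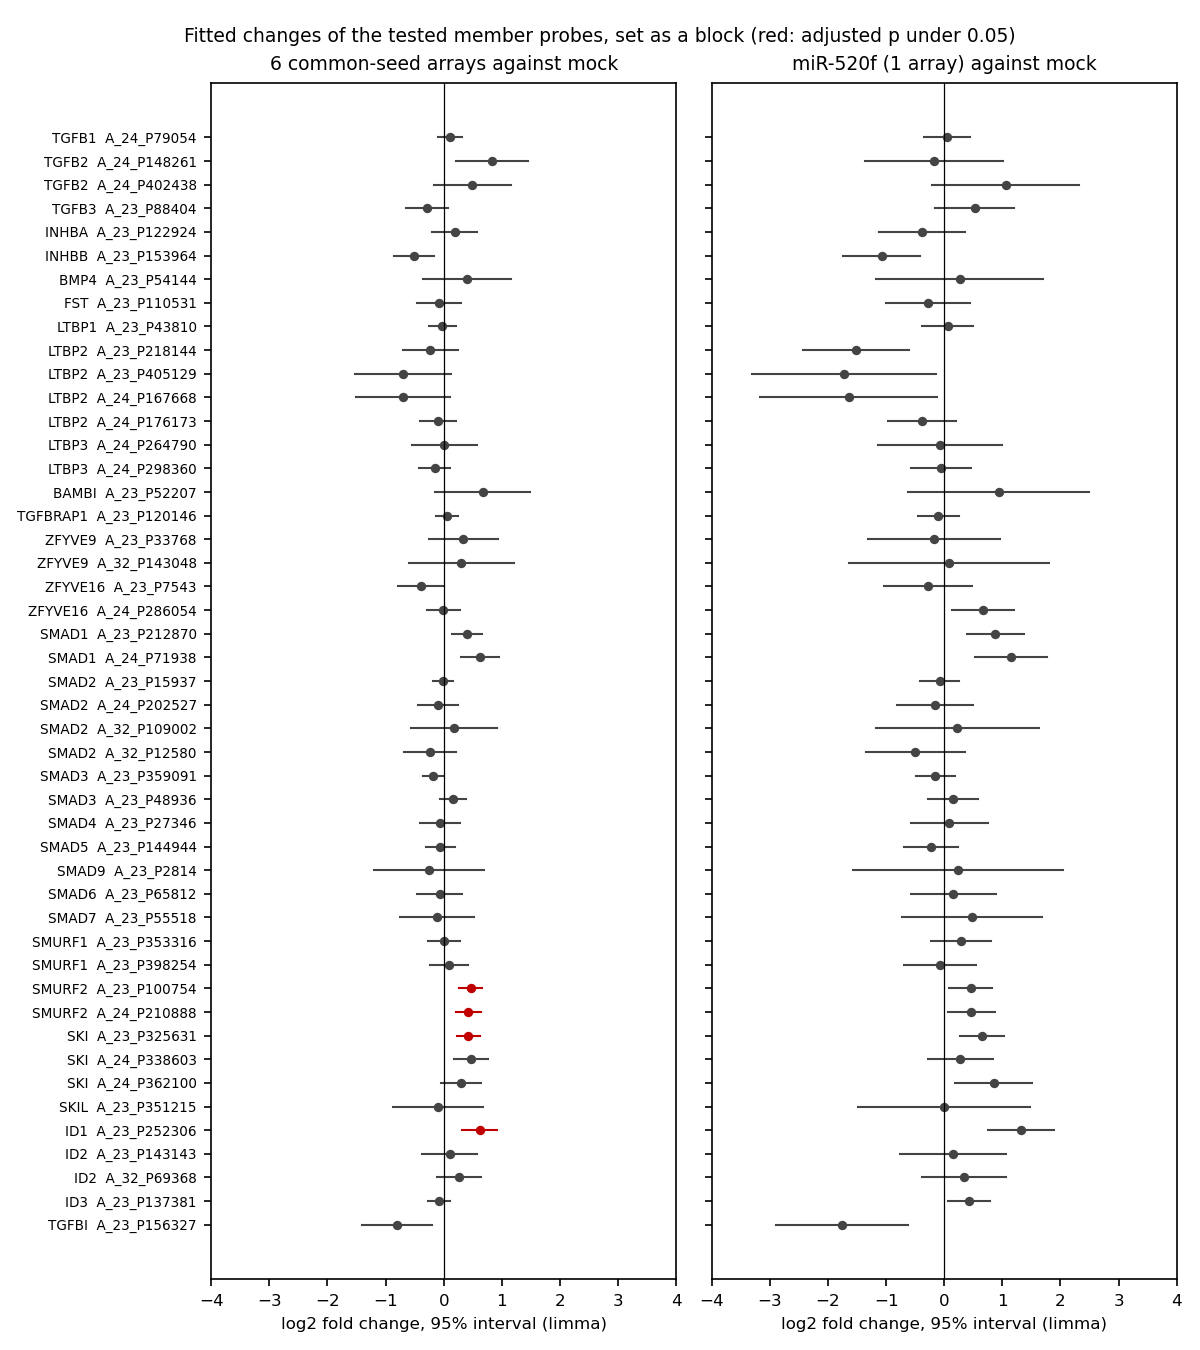
Fitted log2 fold change (points, horizontal axes) with 95% interval (lines) of the 47 tested member probes (vertical axis) for the 6 common-seed arrays against mock on the left and the miR-520f array against mock on the right, with the set as a block. Red marks an adjusted p under 0.05, which the 2 SMURF2 probes, 1 SKI probe and ID1 reached on the left and no probe reached on the right, where the intervals are wider.

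Tested directly against the common-seed duplexes, miR-520f had 0 of 47 member probes called, against 0.0665% of all probes, and 5 had an unadjusted p under 0.05 by limma, against 7.44% of all probes. Those 5, or 10.6% of the 47, were at ID1, ID3, LTBP2, TGFB3 and ZFYVE16. For ID1 the difference was 0.71, with a 95% interval of 0.15 to 1.27 and an adjusted p of 0.507. For SMURF2 A_23_P100754 the difference was -0.01, with an interval of -0.38 to 0.37, and for SMAD1 A_24_P71938 it was 0.52, with an interval of -0.10 to 1.15. These intervals include differences of up to 1.27 for ID1, so that equal responses were not shown.

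The common-seed duplexes had 1 or 2 arrays each, and with a mean per duplex 0 probes (0.0%) of the whole array were called for any of the 6 duplexes by limma. The unadjusted p was under 0.05 at 9 of the 47 member probes with dsEcad640 (19.1%, against 7.78% of all probes) and at 2 with miR-302a (4.26%, against 3.91%). It was so at 8 with miR-372 (17.0%, against 9.53%), 0 with miR-373 (against 3.57%), 8 with miR-520c (17.0%, against 16.9%) and 8 with miR-520f (17.0%, against 7.53%). Some genes had several probes among these, and probes of the same gene are not independent, so these shares are not counts of genes. The median member difference was -0.07 for dsEcad640, 0.07 for miR-302a, 0.27 for miR-372 sample 4, 0.04 for miR-373, 0.07 for miR-372 sample 10, -0.04 for miR-520c and -0.01 for miR-520f. The median of all tested probes was 0.15 on miR-372 sample 4 and between -0.09 and 0.06 on the other duplex arrays. Among tested member probes well above background on all 6 common-seed arrays, the SD of the differences was widest at LTBP2 A_23_P405129, with 0.74. ZFYVE9 A_32_P143048 followed, with 0.71. At the called probes it was 0.12 to 0.15 for SMURF2 and SKI A_23_P325631 and 0.22 for ID1. It was 0.07 at SMAD3 A_23_P359091, which was not called. The test favours a small spread, so a low SD at a called probe is no separate support.

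Other genes of the pathway, from lists that hold no member, were counted in the same comparison, in which 4.19% of all probes were called. Of 14 tested probes of other ligands and 33 of other target genes, 0 were called. Of 15 probes of other secreted modulators, that of NOG, the BMP antagonist noggin, rose by 1.19 ± 0.22 (SE), and that of LTBP4 fell by 0.57 on the log2 scale (SE 0.10). Among the probes of SMAD partners and regulators, E2F5 rose by 0.81 ± 0.10, and RBL2, a pocket protein, fell by 0.70. Of 17 receptor probes 4 were called: 3 of ACVR2B, a type II receptor for activins, were higher, by 1.14 to 1.74, and TGFBR2, the type II TGF-β receptor, fell by 1.89 on the log2 scale (SE 0.13). The medians of these lists ran from -0.02 to 0.18, against 0.03 for all probes.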

How the data were processed

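RNA of PC-3 cells was measured on 11 arrays in 3 sets. The authors deposited scanner files from Agilent Feature Extraction 10.5.1.1, whose processed signal is an intensity with the background subtracted within each array and no scaling between arrays, and a table of log2 values, deposited with a normalization not given in the sources used here. Files of arrays carry no read depth, and the number of arrays limits the precision. Each array's 75th percentile of log2 intensity was taken as its 0, the 52 to 209 of 43376 spots with an outlier flag were dropped, and spots of a probe were averaged. Probes well above background on at least 6 arrays were fitted with limma 3.58.1 in R 4.3.3, with terms for group (mock, common seed, miR-520f) and set, 6 residual degrees of freedom and Benjamini-Hochberg adjustment over all probes. A second fit had a mean per duplex and 2 residual degrees of freedom. Figures were drawn with Python 3.11.15 and matplotlib 3.10.9. The fit by group was also run on simulated data with independent normal errors. Such data hold no deviating array and no differences between duplexes, so the simulation cannot show how the fit copes with them.

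A signal not well above background was given as a bound, against the lowest level well above background on that array. Named probes were those called and, in each role group, those with the lowest and highest fitted change. ID2, ID3 and other members were described besides. The members and lists were chosen with earlier results of these data known. All 34 symbols matched RefSeq. Alternatives were no set block, quantile normalization, normexp (offset 50) in place of the software's background correction, other filters, gene means, the authors' table and leaving out each array. Exon and UTR annotation, transcript sequences and the sequence of dsEcad640 were not used here. Some results of the marker and pathway lists are not reported here.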

Additional observations from a re-analysis of the deposited data

Results flagged for a closer look

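Groups of arrays were checked for 1 array far from the rest. Chance alone marks about 1 in 20 unselected groups of like arrays, a rate that need not hold here. The 17 probes checked were named partly for their fitted change, and the common-seed arrays came from 5 different duplexes. In 4 of 34 groups of arrays checked, 1 array lay far from the rest of its group. In 3 of the 4 these were the common-seed arrays, with miR-372 sample 4 as the distant one: the difference from the mock mean of the set was 0.63 for LTBP2 A_24_P167668 (nearest other array -0.62), 0.95 for LTBP3 A_24_P264790 (nearest 0.07) and 1.39 for SKIL A_23_P351215 (nearest -0.03). That array had 88.1% of its probes well above background and the others had 54.3% to 72.7%, and the part of this in the 3 values was not tested. The other group was the mock arrays for ID1 A_23_P252306, where mock sample 11 was at 5.09 and the others between 4.90 and 4.94, and all common-seed arrays were above it.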

How the results depend on the processing

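The number of member genes called with the common-seed duplexes was 3 and depended on the processing. It was 0 without the set block and 0 without the filter on dim probes. With quantile normalization it was 5, where LTBP2, with A_24_P167668 past the threshold, was called lower beside ID1, SKI, SMAD1 and SMURF2. Leaving out 1 array gave 0 to 5: 5 without miR-372 sample 4, with the same 5 genes, 1 (SMURF2) without miR-520c sample 12, and 0 without any of the other 8 arrays. The whole array had 1137 called probes, 382 without the set block, 222 without the filter, 2100 with the filter on all arrays, 2007 with the authors' table and 24 to 1935 with 1 array left out, the fewest without mock sample 1. The 4 called member probes kept their sign in 17 of 17 alternatives. ID1 passed in 6 of them, with adjusted p-values from 0.00884 to 0.196 by limma, SMURF2 in 7 and 4 at its 2 probes and SKI A_23_P325631 in 4. SMAD1 A_24_P71938, which was not among the 3 called genes, also passed in 6 of 17. With normexp correction and with gene means the number of called genes stayed 3, but with SMAD1 in place of SKI. With the filter on all arrays and with the authors' table it was 4, with SMAD1 beside ID1, SKI and SMURF2. With miR-520f, 0 member genes were called, but 2 (ID1 and LTBP2) with quantile normalization and 1 (ID1) with normexp correction, with the filter on all arrays and with the authors' table, and 0 to 2 with 1 array left out, 2 of them without miR-372 sample 4. For the whole array, 182 probes became 454 with quantile normalization, 102 with normexp, 83 without the set block, 1 without the filter, 331 with the filter on all arrays 289 with the authors' table and 0 to 792 with 1 array left out. For miR-520f against the common-seed duplexes, 0 member genes were called in every setting run, and 18 probes of the whole array became 169 with quantile normalization, 29 with normexp, 0 without the filter, 63 with the filter on all arrays, 49 with the authors' table and 0 to 336 with 1 array left out. For single duplexes, 0 member genes became 4 with dsEcad640 and 2 with miR-302a without mock sample 1 (with 1 array left out, 0 to 4 and 0 to 2), where set 1 was tied to the other sets by miR-372 sample 4 alone. Over the whole array, 0 probes then became 2508 and 1669, and with normexp 25 for dsEcad640, 35 for miR-372, 1 for miR-373 and 129 for miR-520c. The cause of these changes was not tested. miR-373 and miR-520f could not be fitted as single duplexes without mock sample 8. No paired analysis was possible because the sample numbers of the labels are not shared between groups, and arrays were matched by set only, through the set block and the within-set differences. The 8 untested member probes were well above background on at most 3 arrays and were not compared.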
